A study of Mus musculus with 30 samples.

Results

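AP-1 and the early growth response factors were followed through 10 named mouse genes out of 23109 genes or unmatched accessions in the deposited RNA tables. They are the Fos family (Fos, Fosb, Fosl1, Fosl2), the Jun family (Jun, Junb, Jund), Atf3, and the zinc-finger factors Egr1 and Egr2. The members were taken by gene name, with earlier results of these data known, and each had a single RefSeq accession. RNA had been sequenced from brown preadipocytes of 2 genotypes at 4 times of adipogenesis, with 1 library each. The Cre cells are GR f/f cells infected with retroviral Cre, which deletes the floxed gene of the glucocorticoid receptor (GR, gene symbol Nr3c1). Their counterparts, the Vec cells, are GR f/f cells that received the retroviral vector. Both kinds carry the floxed alleles and SV40T and were isolated from the interscapular brown fat of C57BL/6J mice just after birth. The labels name 1 immortalised line per genotype, and whether the Cre cells were a pool or a clone was not given in the sources used here. Cells were sampled at confluence before induction (D0), after 4 hours in the induction mix (4h), on day 2 (D2) and on day 7 (D7). The mix held dexamethasone (2 µg/ml), IBMX (0.5 mM), indomethacin (0.125 mM), insulin (0.02 µM) and T3 (1 nM). Dexamethasone activates GR and IBMX raises cAMP, while nothing is said of the media after 4h in the sources used here.

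AP-1 is a dimer of bZIP proteins. Jun proteins pair with each other or with Fos proteins, whereas Fos proteins need a Jun partner to bind DNA, and Atf3 is a stress-induced bZIP protein that also pairs with Jun proteins. Fos, Junb, Egr1 and Egr2 are immediate early genes whose RNA rises within minutes of a growth factor, serum or cAMP stimulus and usually falls again within hours, so a sample at 4h usually comes after such a pulse. Ligand-bound GR can restrain AP-1 by contact with it, and Egr2 (Krox20) is known to promote adipogenesis in 3T3-L1 cells. These points are background and were not measured here.

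The 8 libraries held 7.7 to 28.9 M reads, with 7.7 M in Cre 4h and 12.3 M in Vec 4h. The 1-library groups have no replicate, so intervals beside RPKM values (reads per transcript length and library total) and ratios are 95% counting intervals, and the p-values of time and genotype are set against the departure from additivity of these factors, the only error available. Nr3c1 stood at 4.81, 4.04, 8.07 and 6.67 RPKM in Cre cells at D0, 4h, D2 and D7, against 24.3, 12.9, 21.3 and 32.1 RPKM in Vec cells. The deleted gene was thus lower in Cre at each of the 4 times, by 2.64-fold (D2) to 5.04-fold (D0). Preadipocyte markers (Pdgfra, Pdgfrb, Col1a1, Col3a1, Dlk1) were present in all libraries, at summed levels of 646.3 to 2546 RPKM. The macrophage markers found (4 of 5) summed to 0.122 to 1.55 RPKM, with Adgre1 at 0 in 7 of 8 libraries. Endothelial markers summed to 0.296 to 3.12 RPKM and skeletal muscle markers to 1.2 to 6.26 RPKM. In bulk RNA, fewer cells of a type and less RNA per cell cannot be told apart.

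Sequence before the transcription start is shown for Egr2, Jun, Fos and Junb, since these are 4 of the 6 members with lower RNA in Cre than in Vec cells at 4h, and the results below turn on them. Each is the 250 bases before a RefSeq start in GRCm38.p6, written 5′ to 3′ on the gene's strand. Capitals mark TGACG (the core of CREB/ATF sites, on either strand), the CArG box of serum response factor, or TGACATCA (a Jun-type AP-1 element). Egr2 lies at chr10:67537619-67537868 (plus strand), Jun at chr4:95052223-95052472 (minus strand), Fos at chr12:85473640-85473889 (plus strand) and Junb at chr8:84978749-84978998 (minus strand).
Egr2: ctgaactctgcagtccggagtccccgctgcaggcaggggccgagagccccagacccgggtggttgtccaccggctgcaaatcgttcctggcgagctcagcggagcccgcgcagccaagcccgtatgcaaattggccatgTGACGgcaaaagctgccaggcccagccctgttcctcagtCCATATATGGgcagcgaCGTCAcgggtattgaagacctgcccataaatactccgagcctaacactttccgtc
Jun: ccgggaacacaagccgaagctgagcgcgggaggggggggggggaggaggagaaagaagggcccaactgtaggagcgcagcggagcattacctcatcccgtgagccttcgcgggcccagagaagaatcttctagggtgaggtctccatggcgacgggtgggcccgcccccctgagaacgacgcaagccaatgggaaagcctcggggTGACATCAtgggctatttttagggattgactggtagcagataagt
Fos: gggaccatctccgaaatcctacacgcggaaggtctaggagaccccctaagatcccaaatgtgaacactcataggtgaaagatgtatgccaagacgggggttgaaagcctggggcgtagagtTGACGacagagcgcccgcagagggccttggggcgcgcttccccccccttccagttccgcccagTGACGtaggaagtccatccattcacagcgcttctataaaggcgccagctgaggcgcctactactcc
Junb: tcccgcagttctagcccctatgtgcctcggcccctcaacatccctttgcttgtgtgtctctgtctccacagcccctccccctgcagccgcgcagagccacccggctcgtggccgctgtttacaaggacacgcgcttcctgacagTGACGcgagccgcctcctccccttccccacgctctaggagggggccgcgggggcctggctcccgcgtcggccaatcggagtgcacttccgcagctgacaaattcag

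Windows of this kind were searched for 8 of the 10 members: Fosl1 had none, and Egr1 was left out of the search. These 8 genes had 12 windows, 5 of them starts of Egr2. TGACG, searched on both strands and overlapping none of the other motifs, stood in 5 of these 8 genes (Fos, Fosb, Junb, Atf3, Egr2) and in 7 of the 12 windows, against 17.8% of all 32851 windows in the RefSeq table. In the Egr2 window shown it occurs 111 to 107 bases before the start and, on the other strand, 55 to 51 bases before it. That window was picked among the 5 of Egr2 for holding both TGACG and a CArG box. Their presence in it was thus fixed by the choice. A CArG box (1.47% of all windows) was in none of the other genes searched. It was found in 4 of the 5 Egr2 windows, 72 to 63 bases before the start shown. Of these 4 windows 3 overlap and hold the same box and the same 2 TGACG sites, so that the 4 windows hold 2 different boxes and the 7 windows with TGACG hold 7 different sites. TGACATCA was found in Jun alone of the genes searched, 45 to 38 bases before the start, against 2.93% of all windows. The AP-1 element TGANTCA (6.75% of all windows) and the full GR element (AGAACA and TGTTCT, 3 bases apart; 0.00913%) were in none of the 12 windows. These matches describe letters, not binding.

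Every member was detected in every library, and 9 of 10 reached the level needed for testing. Fosb stayed at 0.379 to 0.632 RPKM in Cre cells and 0.184 to 0.489 RPKM in Vec cells, on 13 to 59 reads, and was not tested. At D0 the 3 most abundant members were Egr1 (43.8 RPKM), Jund (42.9) and Fosl2 (41.0) in Cre cells, and Fosl2 (41.9), Jund (39.5) and Egr1 (38.6) in Vec cells. In each genotype, neighbours in that order had overlapping counting intervals. Fosl2 led at 4h in both genotypes, with Junb next and Egr1 after it, and none of these intervals overlapped. Egr1 led at D2 and D7 in both.

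**Figure D1:**
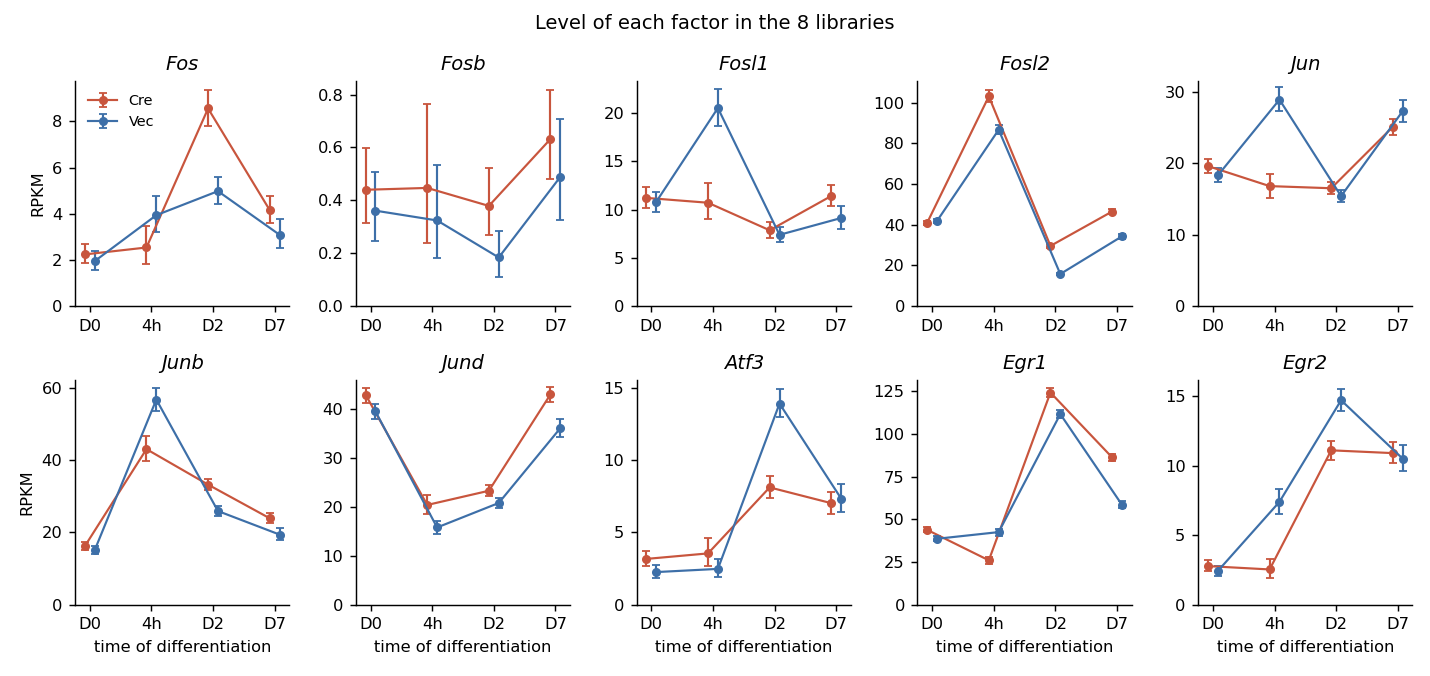
RPKM (y axis, linear, own scale per gene) of the 10 genes at D0, 4h, D2 and D7 in Cre (red) and Vec (blue) cells; points are single libraries and bars are 95% exact Poisson intervals that cover counting error only. Fosl2 and Junb peak at 4h in both genotypes, Jund is lowest there, and Egr2, Fosl1 and Jun are higher at 4h in Vec than in Cre.

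The comparison of 4h with D0 asks which factors differ within hours of induction. In an additive edgeR model of genotype and time, 2 of the 9 tested members rose (Junb and Fosl2), against 12.2% of all 12581 genes tested, and 1 fell (Jund), against 13.1% of genes. The median log2 change was 0.61 over the 9 members and 0 over all genes. Between 4h and D2, 2 members rose (Atf3, Egr1; 15.4% of genes) and 3 fell (Fosl1, Fosl2, Junb; 18.0%). Between D2 and D7, 2 rose (Jund, Fosl2; 15.4%) and 0 fell (8.93%). At an unadjusted p under 0.05 there were 3 and 0, beside 5005 of the 12581 genes in either direction. DESeq2 called 3 and 0, beside 2220 genes higher and 1338 lower. At D7 against D0, 2 were higher (Atf3, Egr2; 5.68%) and 0 lower (2.42%). Here 4 and 0 had an unadjusted p under 0.05, beside 3835 of the 12581 genes in either direction. By DESeq2 they were 3 and 0, beside 1246 genes higher and 857 lower. At D2 against D0, a comparison added after the data were seen, 5 were higher (Atf3, Egr1, Egr2, Fos, Junb; 17.7%) and 2 lower (Fosl2, Jund; 21.0%).

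Fosl2 codes for Fra-2, a Fos protein that lacks the strong transactivation domain of Fos. Its RPKM was 41.0, 103.1, 29.6 and 46.5 in Cre cells at D0, 4h, D2 and D7, against 41.9, 86.7, 15.8 and 34.3 in Vec cells. Both genotypes thus peaked at 4h and were lowest at D2, and all 8 values rest on at least 2677 reads. Fosl2 rose 2.43-fold by 4h (log2 1.28, SE 0.24, edgeR adjusted p = 0.019), in 2 of 2 genotypes. It then fell by 2.23 on the log2 scale by D2 (SE 0.25, edgeR adjusted p = 0.0042), a call that held whichever library was left out. By D7 it rose again by 0.98 (SE 0.24, edgeR adjusted p = 0.036) and stood at a log2 difference of 0.04 from D0 (SE 0.24, adjusted p = 0.94). The rise at 4h missed the threshold without Cre D0 (adjusted p = 0.10), Vec 4h (0.12) or Vec D0 (0.092). The rise from D2 to D7 missed it without Cre D0 (0.050), Cre 4h (0.051), Vec 4h (0.051), Vec D2 (0.16), Cre D7 (0.13) or Vec D7 (0.11), and in a model without genotype (0.070). The lower level at D2 than at D0 (log2 -0.95, SE 0.24, edgeR adjusted p = 0.029) missed it without Vec D0 (0.19) or Vec D2 (0.13), and without genotype in the model (0.063).

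Fos, the prototype immediate early partner of Jun, was among the least abundant members at D0. It measured 2.24, 2.54, 8.56 and 4.16 RPKM in Cre cells at D0, 4h, D2 and D7, against 1.95, 3.94, 4.98 and 3.09 RPKM in Vec cells. Its highest value was at D2 in both genotypes, and at 4h it lay above D0 beyond counting error in Vec cells only. Fos was 3.13-fold higher at D2 than at D0 (log2 1.65, SE 0.36, edgeR adjusted p = 0.018), in 2 of 2 genotypes. The 4h change did not pass (log2 0.79, SE 0.37, edgeR adjusted p = 0.17), and without Cre 4h it was 1.31 (adjusted p = 0.048). The D2 call was lost without Cre D0 (adjusted p = 0.092), Vec D0 (0.12) or Cre D2 (0.084).

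Fosl1 codes for Fra-1, a Fos protein often under the control of AP-1 itself. It had 11.2, 10.7, 7.85 and 11.4 RPKM in Cre cells at D0, 4h, D2 and D7, against 10.8, 20.5, 7.38 and 9.12 RPKM in Vec cells. Vec 4h was the 1 library that stood apart. The 4h change from D0 did not pass in edgeR, but without Cre 4h it was 1.13 (adjusted p = 0.027) and without Vec 4h -0.07 (adjusted p = 0.83). Fosl1 fell by 1.16 on the log2 scale between 4h and D2 (SE 0.33, edgeR adjusted p = 0.042). Of the 8 ways to leave out 1 library the call held without Cre 4h alone. It was lost without Cre D0 (adjusted p = 0.076), Vec D0 (0.074), Cre D2 (0.10), Vec D2 (0.22), Cre D7 (0.051) or Vec D7 (0.051), and without Vec 4h the difference was -0.49 (0.15). It was also lost in limma with a pseudocount of 5 (adjusted p = 0.061). The gene overlaps Ccdc85b in the RefSeq table, and strand use in counting was not given in the sources used here.

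Junb codes for a Jun protein that binds the same sites as Jun with weaker activation. Its RPKM was 16.2, 43.0, 33.2 and 23.9 in Cre cells at D0, 4h, D2 and D7, against 15.1, 56.7, 25.9 and 19.4 in Vec cells. The level was highest at 4h and lower at each later time in both genotypes. Junb rose 3.45-fold by 4h (log2 1.79, SE 0.23, edgeR adjusted p = 0.0089) and fell by 0.90 on the log2 scale by D2 (SE 0.23, edgeR adjusted p = 0.030). At D2 it was 1.85-fold above D0 (edgeR adjusted p = 0.028). The 4h call was lost without Cre D0 (adjusted p = 0.053), Vec 4h (0.053) or Vec D0 (0.091). The fall to D2 was lost without Cre D0 (0.060), Vec D0 (0.058), Vec 4h (0.12), Cre D2 (0.054) or Vec D2 (0.18), and the D2 level above D0 without Cre D0 (0.11), Vec D0 (0.17), Cre D2 (0.14) or Vec D2 (0.057).

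Jund, the Jun gene that is usually expressed in resting cells, went the opposite way to Junb at 4h. It had 42.9, 20.4, 23.3 and 43.0 RPKM in Cre cells at D0, 4h, D2 and D7, against 39.5, 15.8, 20.8 and 36.1 RPKM in Vec cells. The 2 genotypes followed 1 course, low at 4h and D2 and high at D0 and D7. Jund fell 2.14-fold by 4h (log2 -1.10, SE 0.10, edgeR adjusted p = 0.0068) and rose 1.95-fold between D2 and D7 (SE 0.10, edgeR adjusted p = 0.0055). At D2 it was 1.91-fold below D0 (edgeR adjusted p = 0.0035), and this call and that at D7 against D2 held whichever library was left out. At D7 its log2 difference from D0 was 0.04 (SE 0.10, edgeR adjusted p = 0.84). The 4h call was lost without Vec 4h (adjusted p = 0.055) or Vec D0 (0.071), at changes of -1.06 and -1.05.

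Jun, the strongest activator of its family, measured 19.6, 16.8, 16.5 and 25.1 RPKM in Cre cells at D0, 4h, D2 and D7, against 18.3, 28.9, 15.4 and 27.3 RPKM in Vec cells. The 4h values lay on opposite sides of D0 in the genotypes. None of its time contrasts passed in edgeR (4h against D0: log2 0.36, SE 0.26, adjusted p = 0.35; D7 against D2: 0.83, SE 0.26, adjusted p = 0.067). Without Cre 4h the 4h change was 0.78 (adjusted p = 0.046), and without Vec 4h it was -0.15 (adjusted p = 0.62).

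Atf3, which is induced by amino acid shortage and other stress, was highest at D2. It had 3.17, 3.55, 8.11 and 7.02 RPKM in Cre cells at D0, 4h, D2 and D7, against 2.26, 2.48, 13.9 and 7.34 RPKM in Vec cells. Its 4h values were close to D0 in both genotypes (log2 0.22, SE 0.34, edgeR adjusted p = 0.66). Atf3 rose 3.38-fold between 4h and D2 (log2 1.76, SE 0.33, edgeR adjusted p = 0.014) and was 2.82-fold above D0 at D7 (log2 1.5, SE 0.32, edgeR adjusted p = 0.047). The first call was lost without Vec 4h (adjusted p = 0.11) or Vec D2 (0.053), and the D2 level above D0 (log2 1.98, edgeR adjusted p = 0.0078) without Vec D0 (0.076). The D7 call was lost without any one of Cre D0, Vec D0, Cre 4h, Vec 4h, Cre D7 and Vec D7 (adjusted p = 0.070 to 0.34), with a filter of RPKM 5 (0.054) and in limma (0.052 and 0.071).

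Egr1, which couples growth signals to transcription, was the most abundant member at D2. It measured 43.8, 26.0, 124.1 and 86.2 RPKM in Cre cells at D0, 4h, D2 and D7, against 38.6, 42.5, 111.5 and 58.5 RPKM in Vec cells. At 4h it was below D0 in Cre and slightly above it in Vec (log2 -0.15 over both, SE 0.31, edgeR adjusted p = 0.75). Egr1 rose 3.11-fold between 4h and D2 (log2 1.64, SE 0.32, edgeR adjusted p = 0.015) and was 2.81-fold above D0 at D2 (log2 1.49, edgeR adjusted p = 0.016). The first call was lost without Cre D2 (adjusted p = 0.060) or Vec D2 (0.065). The second was lost without Cre D0 (0.070), Vec D0 (0.13), Cre D2 (0.071) or Vec D2 (0.064).

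Egr2 had 2.78, 2.54, 11.1 and 10.9 RPKM in Cre cells at D0, 4h, D2 and D7, against 2.43, 7.40, 14.7 and 10.5 RPKM in Vec cells. It was low at D0 and high at D2 and D7 in both genotypes, and at 4h high in Vec alone. Egr2 was 4.74-fold higher at D2 than at D0 (log2 2.24, SE 0.42, edgeR adjusted p = 0.012) and 4.40-fold higher at D7 (log2 2.14, SE 0.42, edgeR adjusted p = 0.040). Its 4h change did not pass over both genotypes (log2 0.98, SE 0.43, edgeR adjusted p = 0.14), and without Cre 4h it was 1.62 (adjusted p = 0.025). The D2 call was lost without Vec D0 (adjusted p = 0.10) or Vec D2 (0.056), and the D7 call without any one of Cre D0, Vec D0, Cre D2, Vec D2, Cre D7 and Vec D7 (0.068 to 0.31) or without genotype in the model (0.051). Egr2 overlaps the long non-coding Gm32255 in the RefSeq table.

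The comparison of Cre with Vec at each time asks how these factors differ once GR is deleted, and with 1 library each it has no replicate check. At D0 the genotypes were close: 0 of 9 members differed by 1 or more in log2(RPKM + 1), against 0.433% of genes. By counting interval 3 of 9 ratios lay above 1 (11.0% of genes) and 0 below (8.59%). These were Atf3 at 1.40 (1.09 to 1.82), Egr1 at 1.14 (1.08 to 1.2) and Jund at 1.08 (1.03 to 1.14). Whether an interval leaves out 1 depends on the number of reads. The shares of genes by interval, here and at the later times, were not matched to the members for reads.

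At 4h, 6 of the 9 members (Egr2, Fosl1, Jun, Egr1, Fos and Junb) had counting intervals below 1 for Cre over Vec, against 12.8% of genes, and 2 (Fosl2, Jund) had intervals above 1, against 31.5%. The members' median difference in log2(RPKM + 1), Cre minus Vec, was -0.48, while over all genes it was 0.11. Scaling by TMM, whose log2 factor was -0.12 for Vec 4h and within 0.1 of 0 for the other 7 libraries, lowered the 9 differences and left every direction as it was, from -1.35 for Egr2 to 0.30 for Atf3. The intervals and the shares of genes rest on the unscaled library totals and were not recomputed under TMM. Egr2 was 2.92-fold lower in Cre cells (2.19 to 3.94), on 58 reads in Cre and 269 in Vec, and was the only member past the size threshold, which 2.59% of genes passed downward and 1.65% upward. With a pseudocount of 5 its difference was -0.72 and no member passed.

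Fosl1 was 1.91-fold lower in Cre cells at 4h (1.57 to 2.32), Jun 1.72-fold (1.54 to 1.93) and Egr1 1.64-fold (1.49 to 1.80). Fos was 1.55-fold lower (1.07 to 2.28) on 41 reads in Cre and 101 in Vec, and Junb 1.32-fold (1.2 to 1.45). Fosl2 was higher in Cre, at a ratio of 1.19 (1.15 to 1.24), as was Jund at 1.29 (1.14 to 1.46), and the interval of Atf3 held 1 (0.973 to 2.10). Under TMM the difference in log2(RPKM + 1) was 0.13 for Fosl2, against 0.25 as deposited, and 0.23 for Jund, against 0.35. The difference was therefore not shared by all members, and Fosl2, the most abundant, was on the other side. Preadipocyte markers summed to 2343 RPKM in Cre 4h and 2546 in Vec 4h, with 2 of 5 higher in Cre, and adipocyte markers to 23.3 RPKM in Cre 4h and 32.1 in Vec 4h, with Adipoq, Plin1 and Cidec at 0 in both. The part of these shifts, and of the lower depth of Cre 4h, in the members' differences was not tested.

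**Figure D2:**
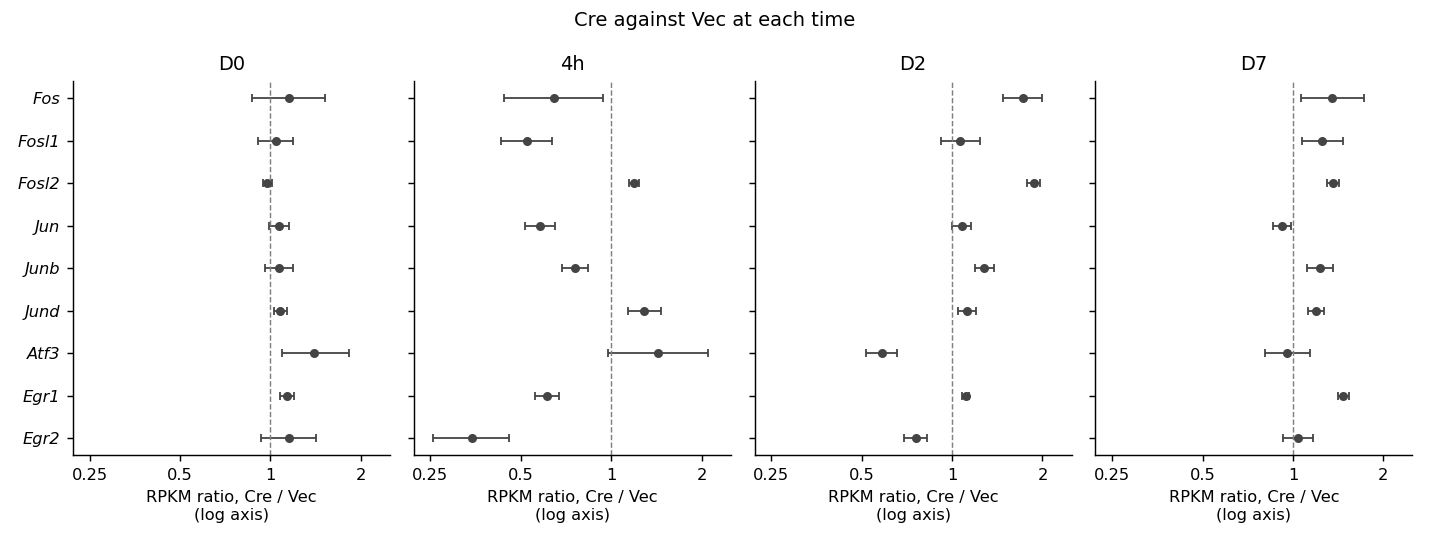
RPKM ratio of Cre to Vec (x axis, logarithmic) for 9 genes at each time, with 95% exact conditional binomial intervals that cover counting error only; the dashed line marks 1. At 4h, 6 of 9 intervals lie below 1, Egr2 farthest at 0.343, while at D0 none does.

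Put as responses, the 4h to D0 ratio of Egr2 was 0.911 (0.668 to 1.23) in Cre cells, against 3.05 (2.51 to 3.72) in Vec cells. For Fosl1 it was 0.959 (0.788 to 1.16) in Cre, against 1.90 (1.66 to 2.18) in Vec, and for Fos 1.13 (0.774 to 1.64) in Cre, against 2.02 (1.51 to 2.69) in Vec. These 3 genes were thus above D0 beyond counting error in Vec alone. For Jun the ratio was 0.860 (0.769 to 0.959) in Cre, against 1.58 (1.46 to 1.71) in Vec, and for Egr1 0.593 (0.543 to 0.646) in Cre, against 1.10 (1.03 to 1.17) in Vec. Junb responded in both, 2.66-fold (2.38 to 2.96) in Cre and 3.75-fold (3.41 to 4.13) in Vec, and so did Fosl2, 2.52-fold (2.42 to 2.62) in Cre and 2.07-fold (2.00 to 2.15) in Vec. The difference between the responses in log2(RPKM + 1), Cre minus Vec, reached 1 for Egr2 alone (-1.39), against 2.63% of genes downward. Fosl1 (-0.92), Egr1 (-0.87), Jun (-0.84), Fos (-0.61) and Junb (-0.48) came next, and under TMM scaling Fosl1 passed too, at -1.03. The differences between responses could not be tested, since no group holds a replicate, and both genotypes' responses rest on a 4h library of lower depth than at D0.

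**Figure D3:**
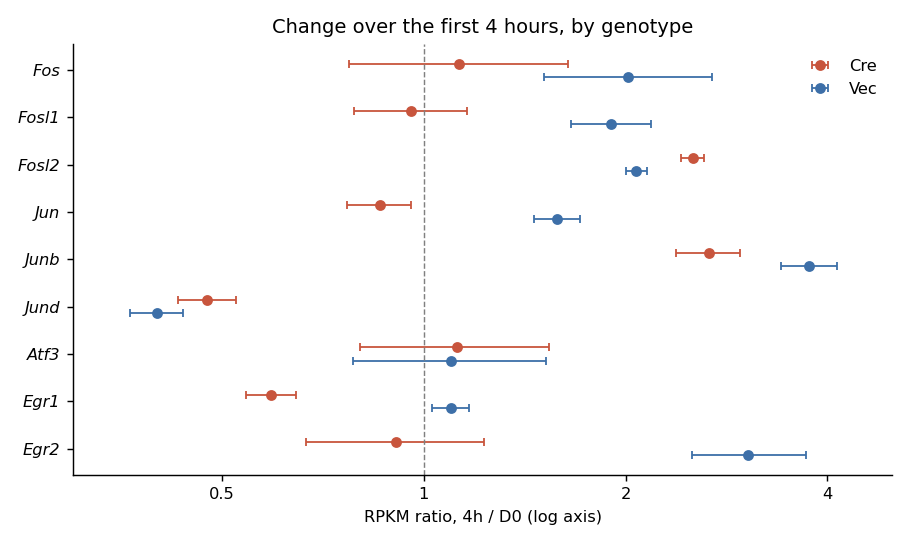
RPKM ratio of 4h to D0 (x axis, logarithmic) in Cre (red, upper point) and Vec (blue, lower point) cells for 9 genes, with 95% counting intervals. The Vec points of Egr2, Fosl1, Jun and Fos lie right of 1 while their Cre points lie near or left of it, and Junb, Fosl2 and Jund moved the same way in both genotypes.

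At D2, 0 of 9 members passed the size threshold, against 4.09% of genes. By counting interval 5 of 9 were higher in Cre cells (27.6% of genes) and 2 lower (36.3%). Fosl2 was higher at a ratio of 1.87 (1.78 to 1.96) and Fos at 1.72 (1.48 to 1.99), while Atf3 was 1.71-fold lower (1.52 to 1.93) and Egr2 1.32-fold lower (1.21 to 1.44). At D7, 0 of 9 passed the size threshold, against 4.50% of genes, and 6 of 9 intervals lay above 1 (31.8% of genes) and 1 below (26.2%). Egr1 led at 1.47 (1.41 to 1.54), followed by Fosl2 at 1.36 (1.30 to 1.42) and Fos at 1.35 (1.06 to 1.73). Preadipocyte markers were higher in Cre at both times (5 of 5), summing to 1388 RPKM in Cre and 646.3 in Vec at D2, and to 2474 in Cre and 1317 in Vec at D7. Adipocyte markers summed to 1258 RPKM in Cre and 1374 in Vec at D2, where Fabp4 made up most of the sum and 3 of 5 were lower in Cre (Adipoq was 143.8 RPKM in Cre and 59.7 in Vec, Plin1 50.5 in Cre and 33.0 in Vec). At D7 they summed to 1335 RPKM in Cre and 3807 in Vec, and 5 of 5 were lower in Cre. The part of these marker shifts in the members' differences was not tested.

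Over all 4 times, 0 of the 9 members and 0 of 12581 genes (0%) differed between Cre and Vec in edgeR. At an unadjusted p under 0.05 there were 1501 genes and 1 member, Jund (log2 0.19, SE 0.07, edgeR adjusted p = 0.41), and DESeq2 called 4 genes higher, 15 lower and 0 members. Egr2 had the most negative fitted value of the members (log2 -0.40, SE 0.29, edgeR adjusted p = 0.53) and Fosl2 the most positive (0.35, SE 0.17, adjusted p = 0.42). A difference that is present at 4h and turns at D2, as for Fos, enters this model as error.

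As shares of the family's summed RPKM, Fosl2 made up 74.7% of Fos-family RNA in Cre and 76.2% in Vec at D0, and 88.3% in Cre and 77.8% in Vec at 4h. At D2 its share was 63.8% in Cre and 55.8% in Vec, when Fos reached 18.4% in Cre and 17.6% in Vec. Fosl2 thus had the largest share of the family at each time. In the Jun family the leading gene turned over: Jund held 54.5% in Cre and 54.2% in Vec at D0, but 25.4% in Cre and 15.6% in Vec at 4h. Junb held 20.6% in Cre and 20.7% in Vec at D0, and 53.6% in Cre and 55.9% in Vec at 4h. At D7 Jund led again, at 46.7% in Cre and 43.6% in Vec. The summed Fos-family level was 116.9 RPKM in Cre and 111.4 in Vec at 4h, as deposited, where the lower Fosl1 and Fos in Cre stood beside a higher Fosl2. Which genotype has the higher Fos-family sum depends on the scale. The log2 TMM factor was 0.0068 for Cre 4h and -0.12 for Vec 4h, and the sums were not rescaled. The summed Jun-family level was 80.3 RPKM in Cre and 101.4 in Vec at that time.

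**Figure D4:**
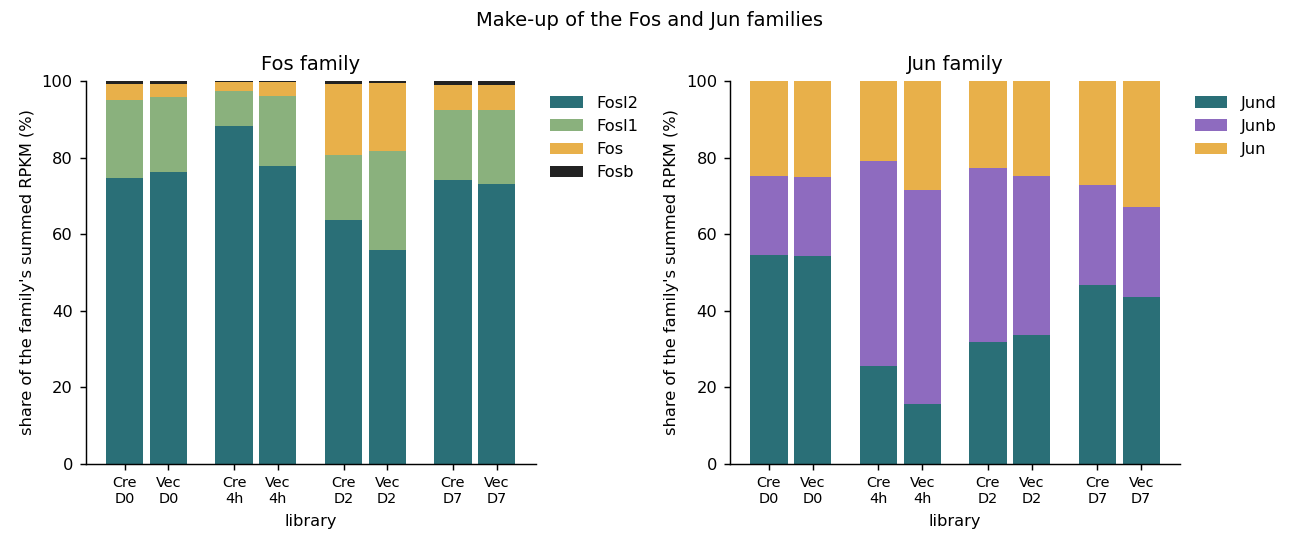
Share (y axis, %) of each gene in the summed RPKM of the Fos family (left) and Jun family (right) per library, Cre left of Vec at each time. Fosl2 is the largest share of the Fos family throughout, and Junb replaces Jund as the largest share of the Jun family at 4h and D2.

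Genes that work with the members or downstream of them were read from lists chosen with earlier results of these data in view, so their counts are descriptions. At 4h against D0, 22 genes of these lists were called in edgeR. Without Vec D0 none of these calls held, without Vec 4h that of Maff alone, without Cre D0 8 and without Cre 4h 11, while 17 to 20 held without any one of the 4 later libraries. Of 11 bZIP partners listed, 10 were found and 8 tested, of which 1 rose and 1 fell at 4h (median log2 change -0.45), against 12.2% and 13.1% of all genes. Maff, a small Maf protein without an activation domain, rose to 31.1 RPKM in Cre 4h, against 8.76 in Cre D0, and to 61.7 RPKM in Vec 4h, against 7.14 in Vec D0 (log2 2.61, SE 0.34, edgeR adjusted p = 0.0090). Jdp2, a repressor that pairs with Jun proteins, fell (log2 -1.28, SE 0.22, edgeR adjusted p = 0.015), and Maf was past the size threshold between genotypes, at 2.57 RPKM in Cre 4h, against 7.35 in Vec 4h. Of the 4 other Egr genes and corepressors 3 were tested, of which 0 rose (12.2% of genes) and 2 fell (13.1%): the corepressors Nab2 (log2 -0.97, edgeR adjusted p = 0.021) and Nab1 (-0.77, adjusted p = 0.029) fell at 4h.

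Among 16 kinases and factors that act upstream of Fos and Egr1, 2 rose and 5 fell at 4h, against 12.2% and 13.1% of genes. Rps6ka1 (RSK1, a kinase downstream of ERK) fell by 1.71 on the log2 scale, Elk3 (a repressive partner of serum response factor) by 1.25 and Srf (serum response factor itself) by 1.09, with edgeR adjusted p from 0.0076 to 0.045. Mapk9 (JNK2) and Creb1 rose by 0.68 and 0.60 (adjusted p = 0.025 and 0.020). Elk3 was higher in Cre at 4h, at 16.0 RPKM against 5.39 in Vec.

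Of 10 other immediate early genes 4 rose and 1 fell at 4h, against 12.2% and 13.1% of genes. Gadd45b, Myc and Ier3 rose by 1.90, 1.77 and 1.28 on the log2 scale (edgeR adjusted p = 0.0073, 0.025 and 0.012), and Btg2, an antiproliferative gene, fell by 0.76 (adjusted p = 0.020). In Cre 4h against Vec 4h, 3 of the 10 were past the size threshold downward and 1 upward, against 2.59% and 1.65% of genes. Rhob, a small GTPase gene, had 15.2 RPKM in Cre and 138.4 in Vec, Ccn1 (Cyr61, a matricellular gene) 32.2 in Cre and 134.5 in Vec, and Myc 26.0 in Cre and 71.8 in Vec. Klf10 was on the other side, at 29.5 RPKM in Cre and 11.1 in Vec. These 4 genes are named because of the size of that difference.

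Of 10 genes read as AP-1 targets, 7 were tested, while Mmp3, Mmp9 and Mmp13 reached at most 0.696 RPKM in any library. At 4h 2 rose and 2 fell, against 12.2% and 13.1% of genes: Il6 rose by 3.91 on the log2 scale (SE 0.36, edgeR adjusted p = 0.0064) and Cd44 by 0.92, while Ccnd1 (cyclin D1) fell by 1.56 and Plaur by 1.06. By D2 all 7 tested had fallen from 4h (18.0% of genes; median log2 change -2.36, against 0 over all genes), and all 7 calls held whichever library was left out. By D7 6 of 7 had risen from D2 (15.4% of genes; median 2.66, against 0.04). Of these calls those of Timp1 and Ccl2 were lost without Vec D2, that of Il6 without Cre D7 and that of Timp1 without Vec D7. Ccl2 was higher in Cre at 4h, at 65.4 RPKM against 20.7 in Vec. By the size threshold 1 of 7 was higher there (1.65% of genes) and 0 were lower (2.59% of genes). The differences in log2(RPKM + 1), Cre minus Vec, ran from 0.04 for Ccnd1 to 1.61 for Ccl2 at that time. Their median was 0.71, against 0.11 over all genes. Of 7 stress genes that accompany Atf3, 0 rose (12.2% of genes) and 2 fell (13.1%) at 4h, Trib3 by 1.48 and Sesn2 by 0.51 (edgeR adjusted p = 0.021 and 0.032). Between 4h and D2 4 rose (15.4% of genes), of which 2 held without Vec 4h, and between D2 and D7 4 fell (8.93%), of which 0 held without Vec D2 and 1 without Vec D7.

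**Figure D5:**
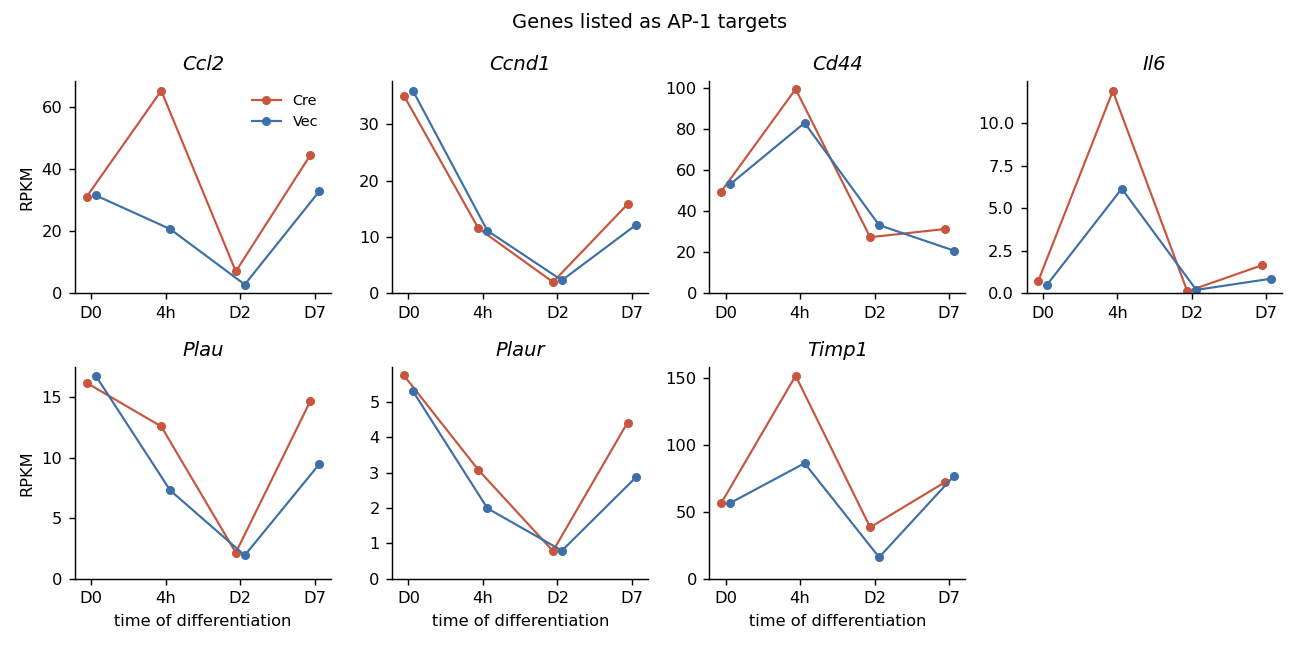
RPKM (y axis, linear, own scale per gene) of the 7 tested genes read as AP-1 targets at D0, 4h, D2 and D7 in Cre (red) and Vec (blue) cells, 1 library per point. All 7 are lower at D2 than at 4h in both genotypes, and Ccl2 at 4h is 65.4 in Cre and 20.7 in Vec.

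The genes with the most similar course were sought by the root-mean-square difference of centred log2(RPKM + 1) over the 8 libraries, in which smaller is more alike. For Jund these were Atxn1 (0.0907) and Syde1 (0.092), and for Fosl2 Pdzrn3 (0.163) and Unc5b (0.198). For Junb they were Ccno (0.177) and Ptp4a1 (0.187), for Atf3 Tysnd1 (0.209) and Cnnm2 (0.231), and for Fos Poln (0.212) and Anks6 (0.228). Egr2 lay nearest to Gpm6b (0.254) and Fmo1 (0.270), and Egr1 to Nfia (0.270) and B3galt1 (0.309). No member was among the nearest 2 of another. Fosl1 and Jun varied too little over the libraries (SD 0.42 and 0.34, under the limit of 0.5) for the measure to be used.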

How the data were processed

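RNA of 8 libraries was analysed, and the 22 ChIP samples in the labels were not analysed here. Per the file headers, the authors deposited a read count and an RPKM value per RefSeq accession for each library. The submitters' processing notes name CASAVA 1.8.2, SICER and mm9. Which aligner and read counter were used for RNA was not given in the sources used here. Count divided by RPKM gave back 1 total per library, taken as its depth. Of 29082 accessions 28436 (97.8%) matched a symbol in a RefSeq table of GRCm38.p6, used for names, overlaps and promoter sequence only; no mm9 coordinate is given. The accession with the most reads stood for a gene.

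Members, gene lists, tests and the rule for names were chosen with earlier results of these data known. That rule named all 10 members, Nr3c1, in each list the 3 largest rises and 3 largest falls past the threshold at 4h and any gene past the size threshold between genotypes at 4h, and the 2 genes of nearest profile. Time and genotype were tested on the counts by the edgeR quasi-likelihood test (edgeR 4.0.16, R 4.3.3; additive model, TMM, Benjamini-Hochberg, threshold 0.05) over 12581 genes that reached RPKM 1 in 2 or more libraries, leaving 3 residual degrees of freedom. All adjusted p-values are from this test unless another tool is named. The SE beside a log2 change is the size of that change divided by the square root of the test's F statistic. Cre against Vec at 1 time has 1 library a side and no test: a gene was past the size threshold at a difference of 1 or more in log2(RPKM + 1), among genes with RPKM of at least 1 in either library. Ratios carry exact conditional binomial (Clopper-Pearson) and RPKM values exact Poisson intervals. Reads are not independent molecules, so intervals cover counting error only. 1 gene of the AP-1 target list is not reported here and is left out of that list's counts. The model scripts were tested on simulated data. Alternatives were RLE scaling, other filters and pseudocounts, limma 3.58.1, DESeq2 1.42.0, summed accessions, a model without the other factor, and each library left out (for the gene lists, added after the data were seen).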

Additional observations from a re-analysis of the deposited data

Results flagged for a closer look

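The change over time went in opposite directions in the 2 genotypes, beyond counting error in each, for 3 members. For Jun the 4h to D0 ratio was 0.860 in Cre cells and 1.58 in Vec cells. For Egr1 the same ratio was 0.593 in Cre cells and 1.10 in Vec cells. For Fosl2 the D7 to D0 ratio was 1.14 in Cre cells and 0.819 in Vec cells. With 1 library per genotype and time, none of these differences between genotypes was tested.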

How the results depend on the processing

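Each p-value of the main model rests on 8 unreplicated libraries and 3 residual degrees of freedom. To these the edgeR test adds prior degrees of freedom estimated over all genes (median 2.88). Calls close to the threshold moved easily. No paired analysis was possible because the RNA labels carry no replicate numbers to pair by. The additive model already sets Cre against Vec within a time, and the model without the other factor drops this. Low depth limits Fosb (13 to 59 reads), and Fos, Atf3 and Egr2 in Cre 4h (41 to 58 reads). Where a call was lost with a library left out, the cause was not tested beyond the smaller number of libraries.

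With 1 library left out, the counts over the members ranged from 0 to 6 higher and 0 to 1 lower at 4h against D0, from 0 to 3 higher and 1 to 4 lower at D2 against 4h, and from 1 to 3 higher and 0 to 1 lower at D7 against D2. They ranged from 0 to 5 higher and 1 to 3 lower at D2 against D0, and from 0 to 2 higher with 0 lower at D7 against D0. Over all genes the ranges were 0 to 1489 higher and 0 to 1628 lower at 4h against D0, 378 to 2056 higher and 818 to 2229 lower at D2 against 4h, and 449 to 1805 higher and 70 to 931 lower at D7 against D2. They were 272 to 2298 higher and 746 to 2616 lower at D2 against D0, and 0 to 1080 higher and 0 to 316 lower at D7 against D0. Over all genes, the 0 counts at 4h and D7 against D0 came without Vec D0. For the members, 0 were higher at 4h also without Cre D0 or Vec 4h, and 0 lower also without Vec 4h. At D7 against D0, 0 members were higher also without Cre D0, Cre D7 or Vec D7. Among members that were not called at 4h, the log2 change from D0 turned in sign for Atf3 (-0.10 to 0.59), Egr1 (-0.78 to 0.35), Fosl1 (-0.07 to 1.13) and Jun (-0.15 to 0.78).

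Other settings of the model moved the following counts by over 1.5 times. Without the other factor 1 member was higher at D7 against D2, 1 lower at D2 against D0 and 1 higher at D7 against D0, where 156 genes were lower. At D7 against D0 the filter of RPKM 5 left 1 member higher, 396 genes higher and 151 lower, limma left 1 member higher with either pseudocount (583 and 578 genes lower), and DESeq2 called 1246 genes higher and 857 lower. Between genotypes over all times, 2 genes were lower with no filter, and DESeq2 called 4 higher and 15 lower.

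For the size threshold the pseudocount mattered most. With 0.1 the genes past it, Cre against Vec, were 35 higher and 54 lower at D0, 398 higher at 4h, 571 higher and 276 lower at D2, 417 higher and 593 lower at D7, and 505 with a more positive 4h response. With 5 they were 1 higher and 3 lower at D0, 48 and 147 at 4h, 85 and 79 at D2, 38 and 171 at D7, and 45 and 154 for the 4h response, and 0 members were lower in either 4h comparison. Under RLE and under TMM scaling, 2 members instead of 1 had the more negative 4h response in Cre.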
